A study of Oryctolagus cuniculus with 4 samples.

Results

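The cytosolic ribosomal protein genes were the features of the count table whose upper-case gene name begins with RPL or RPS followed by a number, with the letters and digits that such names may end in, or reads RPLP0, RPLP1, RPLP2 or RPSA. The rule used names only and found 14 of the 21139 features. Of these, 9 carry names of the large subunit (RPL4, RPL10L, RPL14, RPL23, RPL26, RPL26L1, RPL28, RPL37 and RPLP0) and 5 carry names of the small subunit, among them RPS4X, RPS12, RPS16 and RPS29. The family is larger than this. An NCBI RefSeq table of the rabbit lists 82 symbols of the same form, and 9803 features of the count table carry an identifier in place of a name, so the 14 members are the named fraction of the ribosome. RPL3, RPL5, RPL7, RPL10, RPL11, RPL22, RPL39, RPLP1, RPLP2, RPS6, RPS27, RPS27A, RPSA and the paralogs RPL3L, RPL7L1, RPL22L1, RPL39L and RPS27L were not analysed here.

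The study placed cryosections on Visium slides, whose printed spots bind the poly(A) ends of mRNA and tag every molecule with a barcode of the spot and a unique molecular identifier (UMI). The tissue was the supraspinatus muscle, one of the rotator cuff muscles, of skeletally mature female New Zealand White rabbits. There was 1 section per condition. The fresh healthy section was muscle used soon after snap freezing, and the stored healthy section was healthy muscle kept for 6 years. The 2-week and 16-week sections came from muscle collected 2 and 16 weeks after tenotomy, the surgical cutting of the tendon that serves as a model of rotator cuff tear, and were stored for 6 years in the same way. The sample names of the 16-week and stored healthy sections share an animal number with L and R after it, and those of the other sections have numbers of their own, so the former were read as both sides of 1 rabbit, which the labels do not spell out. Storage or time after tenotomy therefore cannot be told apart from animal in the other comparisons, and from section in any. No test between conditions was possible, and all intervals are 95% intervals that cover counting error only.

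The cytosolic ribosome makes the proteins of the cell. Its large subunit joins amino acids and releases the growing chain through a tunnel, and its small subunit reads the mRNA. The proteins of both subunits are needed in equal numbers, their mRNAs are among the most abundant in most cells, and in skeletal muscle the amount of ribosomes is known to follow growth, disuse and loading.

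The sections held 854 to 2440 spots and 2699937 to 6366290 UMIs outside the mitochondrial genes, and the median spot had 1833 such UMIs in fresh muscle, 2557 in stored healthy muscle, 3057.5 at 2 weeks and 1485.5 at 16 weeks. The 37 mitochondrial genes took 49.3% and 49.2% of all UMIs in the fresh and stored healthy sections but 33.8% and 34.6% at 2 and 16 weeks, so levels are given per non-mitochondrial UMI. Muscle markers were present in every section, with summed levels of 213 to 1356 UMIs per 10000 for 5 fast fibre genes and 417 to 1004 for 7 slow fibre genes. Of the 2931 barcodes in use, 2118 occurred in 2 or more sections and 512 in all 4, which is usual for Visium because every capture area prints the same barcodes.

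The members together took 3.36% of the non-mitochondrial UMIs in the fresh healthy section (interval 3.34 to 3.38), 4.55% in the stored healthy section (4.53 to 4.56), 2.93% at 2 weeks (2.91 to 2.95) and 4.96% at 16 weeks (4.93 to 4.98). These shares rest on 119641, 289436, 79079 and 153809 UMIs. The 2-week section was thus the lowest and the 16-week section the highest, and no 2 intervals overlapped. This ranking depends on the total. Per UMI of all genes, the members took 1.705% in fresh muscle, 2.31% in stored healthy muscle, 1.94% at 2 weeks and 3.24% at 16 weeks, so the fresh section was lowest. Without the 50 most abundant other genes, the log2 ratio of the 16-week to the stored healthy section turned to -0.19. A spot covers several fibres and other cells, so fewer cells of a type and less RNA per cell cannot be told apart in these shares.

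Ribosomal protein mRNA was present nearly everywhere. At least 1 UMI of a member was counted in 99.5% of spots in fresh and 99.9% in stored healthy muscle, 99.8% at 2 weeks and 99.9% at 16 weeks. The median spot had 60.0, 115, 86 and 75 member UMIs in the same order. Among spots with at least 500 non-mitochondrial UMIs, the middle 50% of spots had shares of 4.06% to 4.98% in stored healthy muscle, 2.50% to 3.23% at 2 weeks and 4.22% to 5.72% at 16 weeks, and that range ended at 3.71% in fresh muscle. These ranges did not overlap between the fresh and stored healthy sections, and the 2-week range lay below both ranges of the stored healthy and 16-week sections. The spread beyond what counting alone gives was 0.313 percentage points in the fresh healthy section, 0.550 in stored healthy muscle, 0.548 at 2 weeks and 0.912 at 16 weeks, in the unit of the share and so not relative to its level.

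Levels of single members are given as UMIs per 10000 non-mitochondrial UMIs. The order of the sections for a member is that on this scale and can differ with another total. The assay counts molecules by their 3′ end and was not corrected for transcript length. RPS29, a small zinc-binding protein in the head of the small subunit, was the most abundant member in every section, with 78.6 in fresh muscle, 104 in stored healthy muscle, 68.4 at 2 weeks and 81.8 at 16 weeks. RPS12, another small subunit protein, stood at 40.4, 55.1, 34.9 and 54.8 in the same order. Both genes were lowest at 2 weeks, RPS29 was highest in the stored healthy section, and RPS12 was level between the stored healthy and 16-week sections. RPS16, which lies near the tRNA binding sites, was at 18.9, 23.7, 15.0 and 27.1. RPS4X, the X-linked copy of the small subunit gene RPS4, was at 14.4, 21.7, 13.5 and 30.0. RPS16 and RPS4X had the order of the summed members, with the 2-week section lowest and the 16-week section highest.

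Among the large subunit members, RPL37, a zinc-binding protein, was the most abundant, with 37.1 in fresh muscle, 62.1 in stored healthy muscle, 33.1 at 2 weeks and 65.8 at 16 weeks. RPL23, on the face that meets the small subunit, was at 31.2, 45.1, 26.3 and 52.6, and RPL28 at 25.8, 28.2, 23.6 and 42.3. RPL37 and RPL23 were clearly higher in stored than in fresh muscle, whereas RPL28 was nearly level between them. RPL14 was at 17.3, 23.3, 16.6 and 28.6, RPL4, which reaches into the peptide tunnel, at 10.5, 11.1, 7.97 and 16.2, and RPL26, a protein near the exit of the peptide tunnel, at 11.5, 16.4, 12.2 and 22.1. RPL26 was the only one of these large subunit genes whose lowest level was in the fresh section. RPLP0, the base of the stalk to which translation factors bind, was at 25.4 (interval 24.9 to 26.0), 33.9 (33.5 to 34.4), 20.7 (20.2 to 21.2) and 36.0 (35.4 to 36.7), again lowest at 2 weeks and highest at 16 weeks.

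The paralogs stood apart. RPL26L1, a close copy of RPL26, had 0.691 UMIs per 10000 in the fresh healthy section (interval 0.608 to 0.783), 0.697 in the stored healthy (0.634 to 0.765), 0.863 in the 2-week (0.756 to 0.981) and 1.09 in the 16-week section (0.973 to 1.21). It was detected in 11.0% to 21.1% of spots, against 76.7% to 93.6% for RPL26. The intervals of the fresh and stored healthy sections overlapped, those of the stored healthy and 2-week sections overlapped at their ends, and the 16-week level was the highest. How reads shared by RPL26 and RPL26L1 were assigned was not tested, so the low level of the paralog is uncertain. RPL10L, an autosomal copy of RPL10 known from the male germ line, had 0 UMIs in every section, which allows up to 0.00843 UMIs per 10000 in fresh muscle, 0.00471 in stored healthy muscle, 0.0111 at 2 weeks and 0.00967 at 16 weeks. The other 13 members were detected in all 4 sections.

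**Figure D1:**
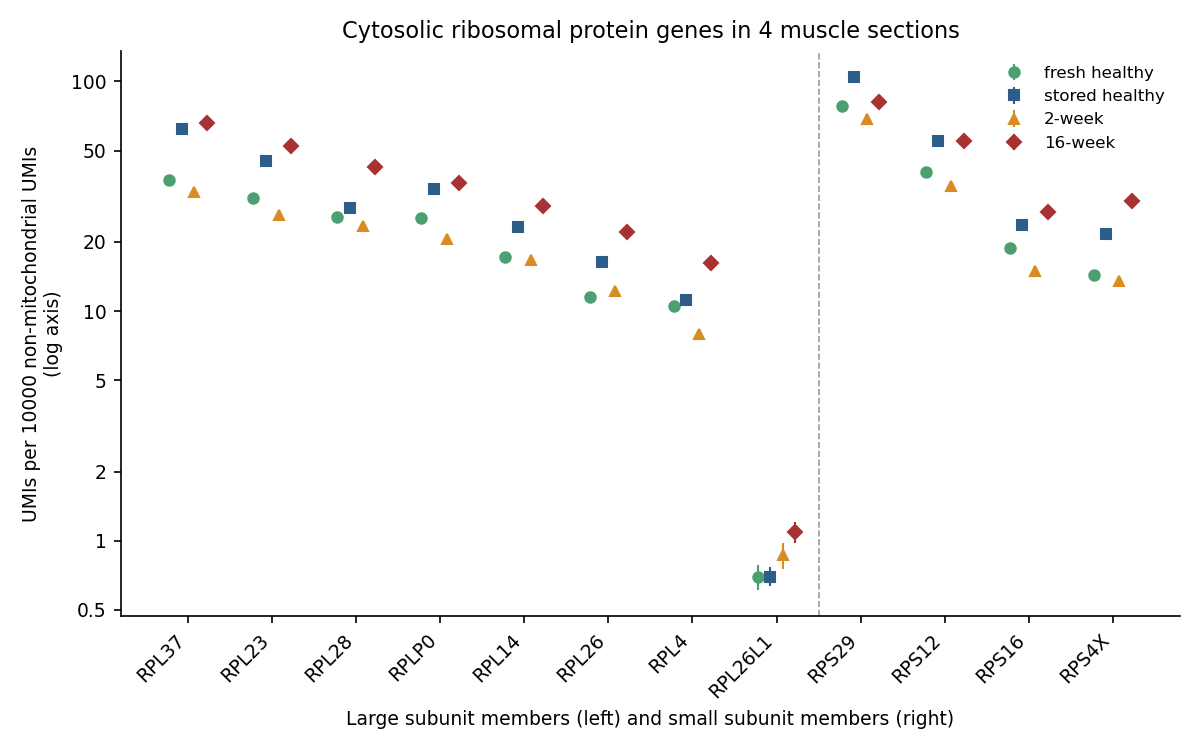
Level of 12 detected members in UMIs per 10000 non-mitochondrial UMIs (vertical log axis) in the 4 sections, with large subunit members on the left and small subunit members on the right, and 95% counting intervals mostly smaller than the symbols. RPS29 is highest in every section, RPL26L1 lies well below the rest at 0.691 to 1.09, and the 2-week triangles lie lowest for all genes drawn but RPL26 and RPL26L1.

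The order of the members by level was similar in all sections. RPS29 came first and RPL26, RPL4, RPL26L1 and RPL10L came last everywhere, and RPL37 and RPS12 exchanged the second place, which RPL37 held in the stored healthy and 16-week sections. Some neighbours in this order could not be separated by their counts. In the fresh healthy section, for example, RPL28 at 25.8 (interval 25.2 to 26.3) and RPLP0 at 25.4 (24.9 to 26.0) overlapped. RPS29 supplied 23.4% of the member UMIs in fresh muscle, 23.0% in stored healthy muscle and 23.4% at 2 weeks, but 16.5% at 16 weeks. RPL28 supplied 7.66%, 6.19%, 8.05% and 8.52% in the same order, and RPS4X 4.29%, 4.76%, 4.62% and 6.06%.

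Small subunit members took 1.77% of non-mitochondrial UMIs in fresh muscle, 2.34% in stored healthy muscle, 1.52% at 2 weeks and 2.31% at 16 weeks, and large subunit members 1.595%, 2.21%, 1.41% and 2.65%. There were 1.11, 1.06 and 1.07 small subunit UMIs for each large subunit UMI in the first 3 sections and 0.874 in the 16-week section. The 16-week section was thus the only one with more large than small subunit UMIs. RPS29, a small subunit member, supplied 16.5% of the member UMIs there and 23.0% to 23.4% in the other sections. The ratio without RPS29 is not given. These are sums over unequal numbers of genes and describe the named members, not the ratio of subunits.

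For comparisons between sections, a gene was counted as past the fold if its share differed at least 1.5-fold, among genes with at least 50 UMIs over both sections. Between the healthy sections, the comparison that addresses long storage, the members together were 1.35-fold higher in the stored than in the fresh section (log2 ratio 0.44, interval 0.43 to 0.44). All 13 detected members had a ratio above 1, or 12 without the 50 most abundant other genes. RPL37, at 1.68-fold, and RPS4X, with a log2 ratio of 0.59, rose past the fold, which makes 2 of 13 against 16.2% of the 4335 genes compared, and 0 of 13 were past it in the other direction against 22.8%. RPS4X lay at the limit, at 1.502-fold with an interval of 1.454 to 1.551. Below the fold, RPL23 was 1.44-fold, RPL26 1.42-fold and RPS12 1.36-fold higher, whereas RPL28 (1.09-fold), RPL4 (1.06-fold) and RPL26L1 (1.01-fold) were nearly level. The median log2 ratio was 0.41 over the members and -0.09 over all genes compared, and all 13 members lay above the median gene. Relative to that median gene, 4 members passed the fold, but the shares of all genes above are not on this scale.

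The 2 healthy sections also differed in their makeup. The summed level of the slow fibre markers was 417 UMIs per 10000 in the fresh and 1004 in the stored section, that of the fast fibre markers 841 and 453, that of the 8 fibroblast markers with a feature 27.8 and 84.7, and that of the 7 regenerating or satellite cell markers 1.18 and 12.4. Among fast spots, those in which MYH7, the slow myosin heavy chain, made up at most 0.3 of the UMIs of MYH7 and the fast MYH1, the log2 ratio of the summed members was 0.34 (interval 0.33 to 0.36). Among slow spots, with an MYH7 share of at least 0.7, it was 0.52 (0.45 to 0.59) with 25 such spots in the fresh section. The fast class was not alike in the 2 sections, with an MYH7 share of at most 0.1 in 948 of 1495 fresh and 104 of 735 stored fast spots. Nor was the slow class, with an MYH7 share of at least 0.9 in 1 of 25 fresh and 522 of 762 stored slow spots. The part of the fibre mix in these ratios was not tested.

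At 2 weeks after tenotomy, the comparison that addresses the early response, the members together had 0.644 of the share in the stored healthy section (log2 ratio -0.63, interval -0.65 to -0.62). Of the 13 detected members, 12 had a ratio below 1. RPL37 fell most, to 0.533 of its stored healthy level, followed by RPL23 (0.583), RPLP0 (0.610), RPS4X (0.624), RPS16 (0.633), RPS12 (0.634) and RPS29 (0.655). These 7 of 13 were past the fold against 8.86% of the 4256 genes compared, and 0 of 13 were past it upwards against 25.7%. Under the fold, RPL14 stood at 0.713, RPL4 at 0.716, RPL26 at 0.745 and RPL28 at 0.838 of the stored level, and RPL26L1, at 1.24-fold (interval of the log2 ratio 0.07 to 0.54), was the only member with a ratio above 1.

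The median log2 ratio at 2 weeks was -0.61 over the members and 0.21 over all genes compared. Relative to the median gene, 11 members were past the fold downwards, but the shares of all genes above are not on this scale. The mitochondrial share differed between these sections, and counted per UMI of all genes the log2 ratio of the summed members was -0.25, with RPL28 (0.13) and RPL26L1 (0.69) above 0. The fast fibre markers stood at 1356 UMIs per 10000 at 2 weeks against 453 in the stored section, the slow fibre markers at 477 against 1004 and the fibroblast markers at 204 against 84.7. Within fast spots, 735 in either section, the log2 ratio was -0.57 (interval -0.59 to -0.56). Within slow spots it was -0.41 (-0.47 to -0.35), from 20 such spots at 2 weeks, and in muscle spots without COL1A1, a collagen gene of fibroblasts, it was -0.68. Neither fibre class was alike in the 2 sections. The MYH7 share was at most 0.1 in 431 fast spots at 2 weeks and 104 in stored muscle. It was at least 0.9 in 1 slow spot at 2 weeks and 522 in stored muscle.

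At 16 weeks, compared with stored healthy muscle, the members together were 1.09-fold higher (log2 ratio 0.13, interval 0.12 to 0.13), but this direction turned to -0.19 when the 50 most abundant other genes were left out of the total, and the median member lay 0.23 below the median gene. The median log2 ratio was 0.29 over the members and 0.53 over all genes compared, and 3 of 13 members lay above the median gene. RPL26L1, at 1.56-fold (interval 1.35 to 1.80), and RPL28, at 1.501-fold (1.467 to 1.535), rose past the fold, with intervals that hold the 1.5-fold limit. These are 2 of 13 against 46.7% of the 4529 genes compared, and 0 of 13 were past it downwards against 7.37%. Both calls end relative to the median gene, where 0 members were past the fold upwards and 1, RPS29, downwards. No share of all genes is given on that scale. Without the 50 most abundant other genes, RPL26L1 was at 0.33 and RPL28 at 0.28. RPL4 was 1.45-fold, RPS4X 1.39-fold and RPL26 1.35-fold higher, whereas RPS12 was level at 0.995 and RPS29 stood at 0.784 of its stored level. Counted per UMI of all genes, the log2 ratio of the sum was 0.49 and all 13 had a ratio above 1, with RPS29 at a log2 ratio of 0.01, and without the 50 most abundant other genes 6 did.

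The members thus spread more in this comparison than between the healthy sections, with RPS29 below 1, RPS12 level and the other 11 genes above 1, of which 6 stayed above it without the 50 most abundant other genes. With RPS29 left out of the sum, an alternative chosen after the data were seen, the log2 ratio of the remaining members was 0.24. The regenerating or satellite cell markers stood at 31.5 UMIs per 10000 at 16 weeks against 12.4 in the stored healthy section, the adipocyte markers at 20.4 against 5.84, the macrophage markers at 7.73 against 3.84 and the fast fibre markers at 213 against 453. The difference was smaller in fast and in slow spots and larger in mixed spots, with log2 ratios of -0.02 in fast spots (interval -0.05 to 0.01), 0.19 in mixed spots (0.18 to 0.21) and 0.04 in slow spots (0.03 to 0.05). The slow class was not alike, with an MYH7 share of at least 0.9 in 522 of 762 stored and 177 of 755 16-week slow spots. It also held opposite differences. At an MYH7 share of 0.7 to 0.9, the members took 5.07% at 16 weeks and 4.64% in stored muscle. At 0.9 or more, they took 4.70% and 4.89%.

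Between the tenotomy sections, the members together were 1.69-fold higher at 16 than at 2 weeks (log2 ratio 0.76, interval 0.75 to 0.77), and all 13 detected members had a ratio above 1, or 12 without the 50 most abundant other genes, where RPS29 fell below it. The 11 members that rose past the fold made up 11 of 13 against 35.2% of the 4091 genes compared, and 0 of 13 were past it downwards against 10.8%. RPS4X was 2.22-fold, RPL4 2.03-fold, RPL23 2.00-fold and RPL37 1.99-fold higher, RPS16 and RPL26 were both at 1.81-fold, and RPS12 was lowest of those past the fold at 1.57-fold. RPL26L1 (1.26-fold) and RPS29 (1.20-fold) stayed under it.

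The median log2 ratio between the tenotomy sections was 0.85 over the members and 0.34 over all genes compared. Relative to the median gene, 5 members passed the fold, with no share of all genes given on that scale. Without the 50 most abundant other genes, the log2 ratio of the summed members was 0.44. The fast fibre markers differed most between these sections, with 1356 UMIs per 10000 at 2 weeks and 213 at 16 weeks, and the slow fibre markers stood at 477 and 837. Within fast spots the log2 ratio of the summed members was 0.55 (interval 0.52 to 0.58), within mixed spots 0.65 (0.62 to 0.68) and within slow spots 0.45 (0.39 to 0.51). Here too the classes were not alike, with an MYH7 share of at most 0.1 in 9 of 116 fast spots at 16 weeks and 431 of 735 at 2 weeks. The comparisons share sections (the stored healthy section enters 3 of the 4), so they are not independent of each other.

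**Figure D2:**
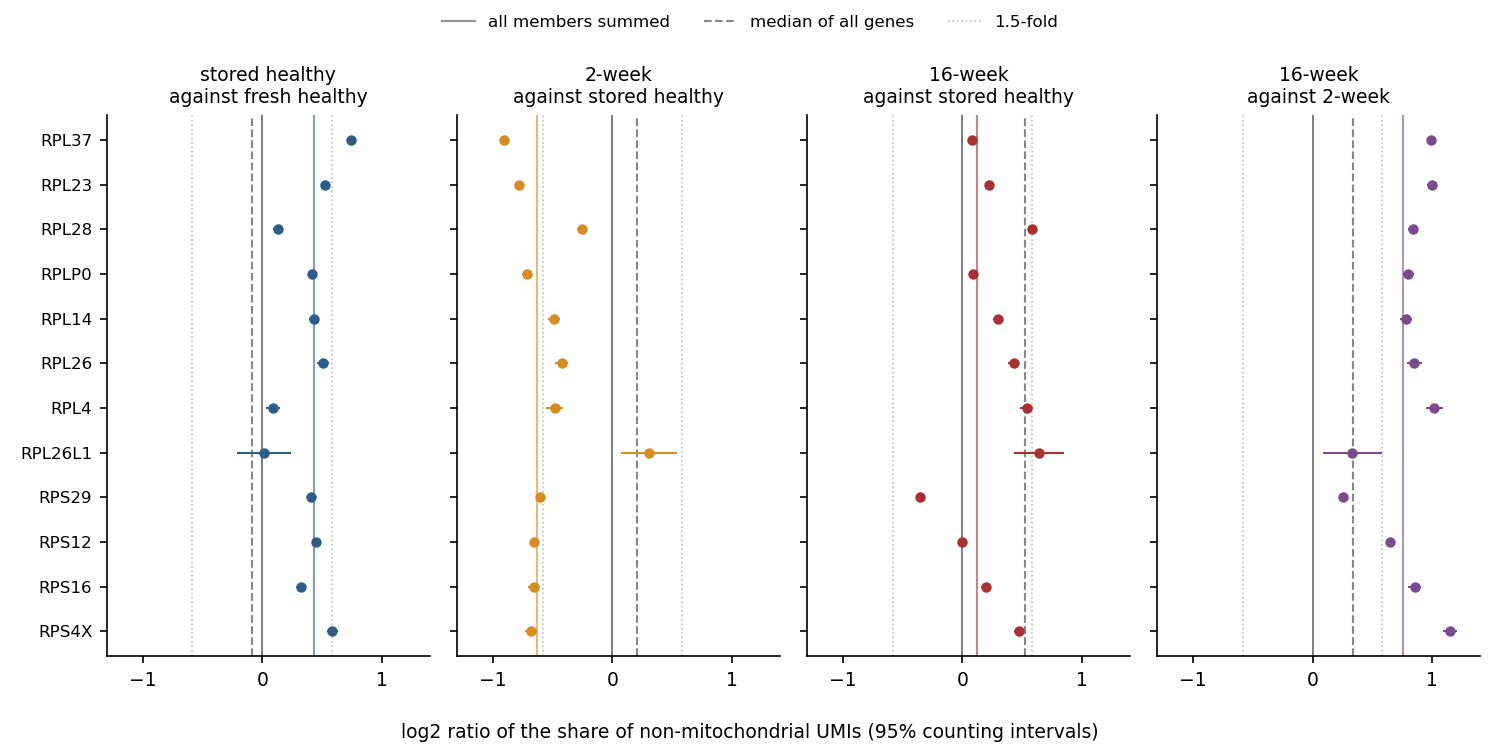
Log2 ratio of 12 members' shares of non-mitochondrial UMIs in the 4 comparisons of sections, with 95% counting intervals, the ratio of all members summed (solid coloured line), the median of all genes compared (dashed) and the 1.5-fold limits (dotted). Nearly all members lie right of the median gene in stored against fresh muscle and at 16 against 2 weeks and left of it at 2 weeks, while at 16 weeks against stored muscle the sum is at 0.13 (-0.19 without the 50 most abundant other genes) and most members lie left of the median gene at 0.53.

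Other genes of protein synthesis were described from fixed lists, by the count past the fold and the median log2 ratio. Of 36 genes of the mitochondrial ribosome, which makes the proteins encoded by mitochondrial DNA, 33 or 34 were compared. Their median was -0.07 in stored against fresh muscle, -0.19 at 2 weeks and -0.14 at 16 weeks against stored muscle, and 0.07 at 16 against 2 weeks. In the same order, 0, 0, 2 and 2 were past the fold upwards and 5, 3, 1 and 3 downwards. Over all genes compared, 16.2%, 25.7%, 46.7% and 35.2% were past it upwards and 22.8%, 8.86%, 7.37% and 10.8% downwards. MRPL17 was highest in both 16-week comparisons, with log2 ratios of 1.25 against stored muscle and 1.81 against 2 weeks. The medians of all genes compared were -0.09, 0.21, 0.53 and 0.34, so the mitochondrial ribosome list lay near them in the first comparison and below them in the others.

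Of 59 translation factors and related mRNAs, 27 have a feature and 23 or 24 were compared. Their medians of -0.04, 0.22, 0.52 and 0.30 in the same order lay near those of all genes compared, with 1, 5, 9 and 5 past the fold upwards and 3, 1, 0 and 1 downwards. The highest of these counts, at 16 weeks against stored muscle, was 9 of 24 against 46.7% of all genes. EIF3A, a subunit of the initiation factor eIF3, had log2 ratios of 1.14 at 2 weeks and 1.67 at 16 weeks against stored muscle, and EIF4B, which helps unwind mRNA, was the lowest of the list at 2 weeks with -0.80. Of 52 genes of ribosome biogenesis, 34 have a feature and 22 to 27 were compared. Their medians of -0.36, 0.24, 0.54 and 0.29 lay below that of all genes in the first comparison and near it in the others, with 0, 3, 10 and 5 past the fold upwards and 5, 1, 0 and 2 downwards. Here too the highest count, 10 of 27 at 16 weeks against stored muscle, stood against 46.7% of all genes. NCL, the nucleolar protein nucleolin, was among the 2 highest at 16 weeks, with 1.51 against stored muscle and 1.04 against 2 weeks, and RRP12, a factor of ribosomal subunit export, stood at 1.11 at 2 weeks.

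Of 29 regulators known to act on the translation of ribosomal protein mRNAs or on muscle protein balance, 17 have a feature and 8 to 10 were compared. Their medians were -0.27, 0.28, 0.55 and 0.49, beside -0.09, 0.21, 0.53 and 0.34 for all genes compared. Past the fold were 0, 2, 4 and 3 upwards and 3, 0, 0 and 0 downwards. At 16 weeks against stored muscle this was 4 of 10 upwards against 46.7% of all genes. SESN3, a stress-induced inhibitor of the mTORC1 kinase, was at 3.44 and TRIM63, a ubiquitin ligase of muscle atrophy, at 2.05 at 16 weeks against stored muscle, and RPS6KB1, a kinase that phosphorylates ribosomal protein S6, at 1.01 at 2 weeks. Of the ribosome genes that the name rule leaves out, FAU, RPL36AL and RACK1 had 0 features of that name.

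The remaining marker lists give the other cell types a spot can hold, as summed UMIs per 10000 in fresh muscle, in stored healthy muscle, at 2 weeks and at 16 weeks. Macrophage markers (11 of 11 with a feature) stood at 0.958, 3.84, 3.35 and 7.73, and endothelial markers (5 of 6) at 2.64, 4.41, 4.30 and 4.53. Smooth muscle markers (2 of 4) stood at 3.49, 2.90, 5.03 and 6.33, and adipocyte markers (4 of 7, with LEP at 0 in every section) at 6.83, 5.84, 9.46 and 20.4. Lymphocyte and plasma cell markers (5 of 9) stood at 0.0450, 0.0346, 0.170 and 0.538, and blood markers (1 of 4) at 0.112, 0.118, 0.0481 and 0.258. Over both healthy sections, 1 of 4 adipocyte genes and 0 of 5 lymphocyte and plasma cell genes reached the minimum of 50 UMIs. The summed levels of the regenerating (1.18, 12.4, 8.62 and 31.5), macrophage, blood and endothelial lists had the direction of the summed members in all 4 comparisons. The endothelial list was nearly level between the stored sections. The blood list, 1 gene with 13 to 80 UMIs per section, was nearly level between the healthy sections (1.05-fold). At 16 weeks against stored muscle, the direction of the summed members itself turned without the 50 most abundant other genes. Fast fibre markers (841, 453, 1356 and 213) had the opposite direction in all 4. The fibroblast, slow fibre, smooth muscle, adipocyte, and lymphocyte and plasma cell lists had the direction of the summed members in some comparisons and the opposite in others. Genes within a list did not all go the same way. At 2 weeks against stored muscle, 2 of the 4 regenerating genes compared were past the fold upwards and 2 downwards. Of 9 macrophage genes, 2 were past it upwards and 3 downwards, against 25.7% and 8.86% of all genes. The part of these lists in the member levels was not tested.

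Across spots, the first division was by fibre type. Slow spots had an MYH7 share of at least 0.7 and fast spots of at most 0.3, among spots with at least 10 UMIs of MYH1 and MYH7. These classes do not use MYH4, another fast myosin heavy chain. In fast spots, the fast fibre markers other than MYH1 stood at 477 UMIs per 10000 in fresh muscle, 468 in stored healthy muscle, 701 at 2 weeks and 286 at 16 weeks. In the stored healthy section, the members took 4.83% in 762 slow spots and 4.27% in 735 fast spots, a log2 ratio of 0.18 (interval 0.17 to 0.19). At 2 weeks, they took 3.64% in 20 slow and 2.87% in 735 fast spots (log2 ratio 0.34, interval 0.28 to 0.40), and at 16 weeks 4.97% in 755 slow and 4.20% in 116 fast spots (0.24, 0.21 to 0.27). The slow spots were thus higher in the 3 stored sections. In the fresh section, 25 slow spots had 3.37% and 1495 fast spots 3.36% (0.00, interval -0.06 to 0.07), and the value was -0.07 without the 50 most abundant other genes. Without those genes, the ratios were 0.04 in stored healthy muscle, 0.19 at 2 weeks and 0.11 at 16 weeks, each lower than with them. Between the outer quartiles of the MYH7 share, they were 0.15 at 2 weeks and 0.066 at 16 weeks.

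Between these extremes, the stored healthy section had a graded change. From spots with an MYH7 share of at most 0.1 upwards, the member share was 4.06% (interval 3.98 to 4.14), 4.30% (4.27 to 4.33), 4.46% (4.43 to 4.49), 4.64% (4.58 to 4.69) and, with a share of at least 0.9, 4.89% (4.86 to 4.93), with no overlap between neighbours. At 2 weeks, it was 2.83%, 2.94% and 3.25% over the first 3 classes, and the classes above 0.7 held under 20 spots each. In the 16-week section, it did not keep climbing, with 4.22% in spots with a share of 0.1 to 0.3, 5.10% at 0.3 to 0.7, 5.07% at 0.7 to 0.9 and 4.70% at 0.9 or more. The fresh section was flat, with 3.35% to 3.38% over the 4 classes that held at least 20 spots. Depth of the spots differed in the stored section, with a median of 3204.5 non-mitochondrial UMIs in the class at 0.9 or more against 2220.0 in that at 0.1 or less. The bins of spots with the lowest and highest depth, of 5 bins, had 4.48% and 4.61% there. These bins pool spots of all MYH7 classes, so the part of depth in the graded change was not tested.

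All 13 detected members had a slow to fast ratio above 1 in each of the 3 stored sections, and few passed the fold. The median over all genes compared was above 1 as well. Above that median lay 7, 9 and 13 of the 13 members in stored healthy muscle, at 2 weeks and at 16 weeks. Without the 50 most abundant other genes, 10, 9 and 13 of the 13 remained above 1 in stored healthy muscle, at 2 weeks and at 16 weeks. In the stored healthy section, RPL26L1 rose past the fold at 1.65-fold (212 UMIs in slow and 98 in fast spots), which is 1 of 13 against 29.4% of all genes compared. RPL37 followed at 1.28-fold, from 54.0 UMIs per 10000 in fast to 69.4 in slow spots, then RPS4X at 1.27-fold and RPL26 at 1.22-fold, and RPS29 was nearest to 1 at 1.03-fold. At 2 weeks, RPL37 rose past the fold at 1.61-fold, from 31.6 to 50.8 UMIs per 10000, which is 1 of 13 against 48.9%, and RPL23 (1.43-fold), RPL26 (1.39-fold), RPL26L1 (1.29-fold, from 8 UMIs in slow spots) and RPS29 (1.28-fold) came next. At 16 weeks, RPL26L1 was at 1.52-fold, from 18 UMIs in fast spots (interval of the log2 ratio -0.09 to 1.39), which is 1 of 13 against 24.9%, and RPS12 (1.27-fold), RPL37 (1.25-fold) and RPS16 (1.20-fold) were the next.

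In the fresh section, 0 of 13 members were past the fold against 48.4% of all genes compared. RPL37 was higher in slow spots there too, at 43.4 against 36.1 UMIs per 10000 (1.20-fold), and it was the only member whose interval of the log2 ratio lay above 0 (0.07 to 0.45). RPL37 was at least 1.20-fold higher in slow spots of all 4 sections, and without the 50 most abundant other genes its log2 ratios were 0.19, 0.23, 0.54 and 0.20 in fresh muscle, in stored healthy muscle, at 2 weeks and at 16 weeks. The median log2 ratio over members was 0.21 in stored healthy muscle, 0.30 at 2 weeks and 0.24 at 16 weeks, against 0.18, 0.10 and 0.14 for all genes compared, and -0.07 against -0.02 in the fresh section. Fibroblast markers differed between slow and fast spots as well, with 130 against 60.2 UMIs per 10000 in stored healthy muscle, 92.7 against 212 at 2 weeks and 109 against 101 at 16 weeks. The regenerating or satellite cell markers stood at 25.1 against 3.99 in stored healthy muscle and at 42.4 against 9.87 at 16 weeks. They stood at 7.97 against 0.957 in the fresh section, from 43 UMIs in slow spots. Of the 2 genes compared there, 1 was past the fold upwards and 1 downwards, against 48.4% of all genes either way. At 2 weeks, the list stood at 3.67 against 9.29, from 26 UMIs in slow spots. The part of these lists in the member ratios was not tested. In spots without COL1A1, the log2 ratio of the summed members was 0.18 in stored healthy muscle and 0.26 at 16 weeks.

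**Figure D3:**
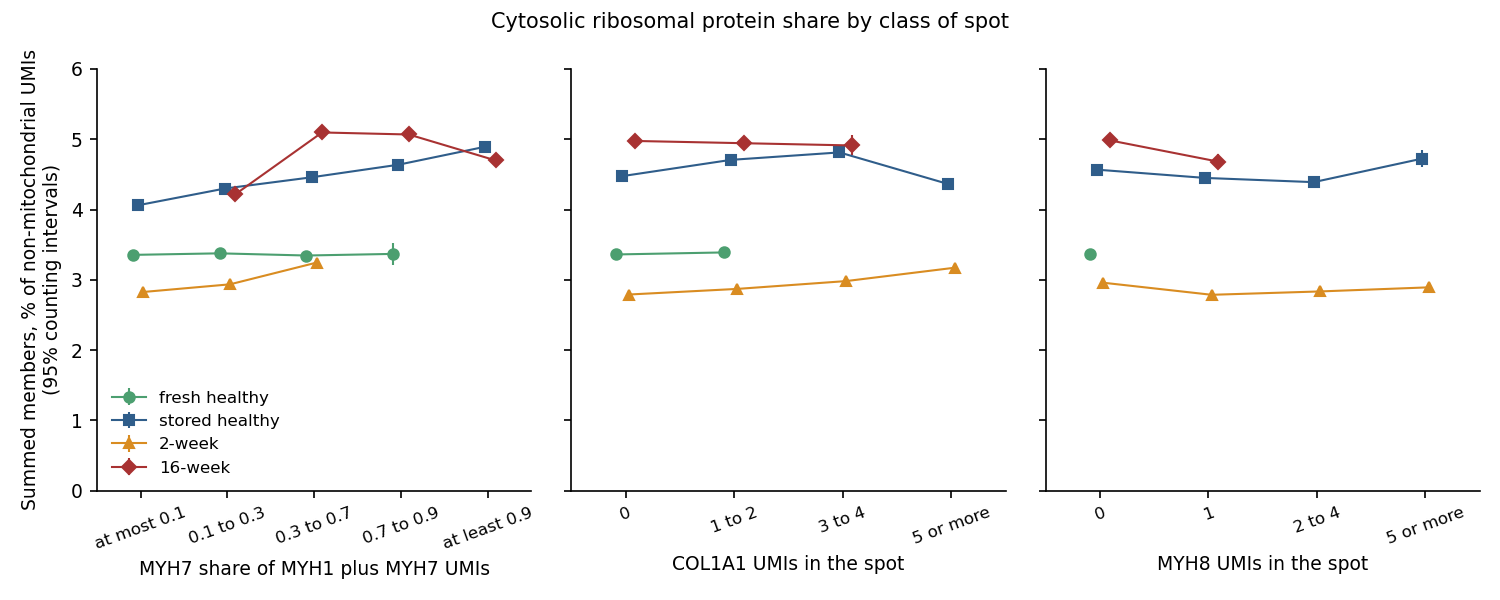
Share of non-mitochondrial UMIs taken by all members (vertical axis, from 0) in classes of spots by MYH7 share, by COL1A1 UMIs and by MYH8 UMIs, for each section with 95% counting intervals; classes with fewer than 20 spots are not drawn. The stored healthy section climbs from 4.06% to 4.89% with the MYH7 share and the 2-week section from 2.79% to 3.17% with COL1A1. With MYH8, the stored healthy section goes from 4.57% at 0 to 4.39% at 2 to 4 UMIs and 4.725% at 5 or more. The 16-week section goes from 4.99% at 0 to 4.68% at 1 MYH8 UMI. The lines of the stored healthy and 16-week sections cross along the MYH7 share.

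The second division was by COL1A1, which marks collagen-producing fibroblasts, with at least 3 UMIs in a spot against 0. At 2 weeks, the members took 3.09% in 245 COL1A1 spots and 2.79% in 289 spots without it (log2 ratio 0.15, interval 0.12 to 0.17), or 0.043 on the log2 scale without the 50 most abundant other genes. By number of COL1A1 UMIs, their share was 2.79% at 0, 2.87% at 1 to 2, 2.98% at 3 to 4 and 3.17% at 5 or more, so it climbed with each class. Stored healthy muscle had 4.60% in 100 COL1A1 spots and 4.48% in 1776 spots without (0.04, interval 0.02 to 0.06), a direction that turned with a minimum of 5 UMIs (-0.04) and without the 50 most abundant other genes (-0.14). There the share was 4.71% at 1 to 2, 4.81% at 3 to 4 and 4.36% at 5 or more COL1A1 UMIs, the last from 35 spots with a median of 6345 non-mitochondrial UMIs. At 16 weeks, it was 4.72% in 66 COL1A1 spots and 4.98% in 1344 spots without (-0.08, interval -0.11 to -0.04), which became -0.36 without the 50 most abundant other genes. The fresh section had 5 spots with at least 3 COL1A1 UMIs and was not compared, and its 100 spots with 1 to 2 UMIs had 3.39% against 3.36% at 0.

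The small sums hid members that differed in opposite directions. RPS29 had 86.8 UMIs per 10000 in COL1A1 spots and 107 in spots without in the stored healthy section (0.812-fold), 66.4 and 69.5 at 2 weeks (0.956-fold) and 59.7 and 84.5 at 16 weeks (0.707-fold). RPS4X had 26.3 and 20.3 (1.29-fold), 14.8 and 11.9 (1.24-fold) and 34.2 and 29.6 (1.15-fold). RPS29 was thus lower in COL1A1 spots of all 3 sections, and RPS4X higher, although at 16 weeks RPS4X turned to a log2 ratio of -0.08 without the 50 most abundant other genes, where RPS29 was at -0.78. RPL14 was at 1.18-fold, 1.28-fold and 1.19-fold, turning to -0.03 at 16 weeks in the same way, and RPL4 was at 1.20-fold, 1.07-fold and 1.33-fold, turning to -0.00 at 2 weeks. RPL37 was level in the stored healthy (1.02-fold) and 2-week sections (0.994-fold) and at 0.690-fold at 16 weeks, from 67.9 to 46.8 UMIs per 10000.

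With RPS29 left out, the log2 ratio of the summed members was 0.13 in stored healthy muscle, 0.21 at 2 weeks and -0.00 at 16 weeks. Over the members, 11 of 13 were above 1 in the stored healthy section, 11 of 13 at 2 weeks and 9 of 13 at 16 weeks (6, 10 and 1 of 13 without the 50 most abundant other genes), and their median log2 ratios of 0.17, 0.24 and 0.06 stood beside 0.23, 0.06 and 0.17 for all genes compared. At 16 weeks the median was thus above 0 while the sum was below it. Past the fold were 1 of 13 in the stored healthy section, RPL26L1 at 1.66-fold from 46 UMIs, against 43.2% of all genes compared, 0 of 13 at 2 weeks against 22.1%, and 0 of 13 at 16 weeks against 56.6%.

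COL1A1 spots differed from the others in makeup. The other fibroblast markers stood at 223 against 56.0 UMIs per 10000 in the stored healthy section, 330 against 98.2 at 2 weeks and 492 against 92.1 at 16 weeks, and the macrophage markers at 15.9 against 2.41, 5.04 against 1.94 and 26.6 against 5.67. The fast fibre markers were at 161 against 531, 1315 against 1354 and 84.9 against 227. Slow fibre markers were at 1372 against 886 in the stored healthy section but at 364 against 574 and 351 against 896 at 2 and 16 weeks, and the median depth was 3952 against 2445.5, 3499 against 2485 and 1653.5 against 1384 non-mitochondrial UMIs. The part of these differences in the member ratios was not tested.

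**Figure D4:**
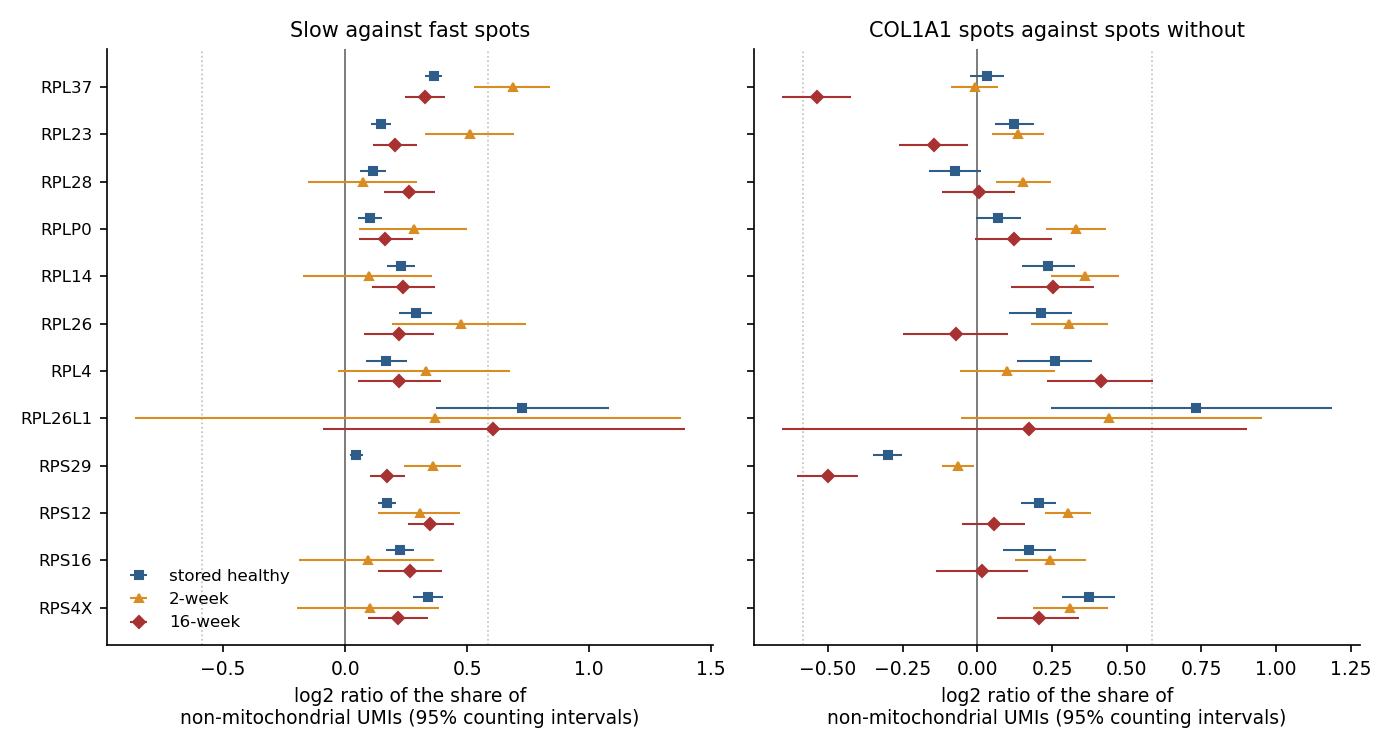
Log2 ratio of 12 members' shares of non-mitochondrial UMIs between slow and fast spots (left) and between COL1A1 spots and spots without (right) in the 3 stored sections, with 95% counting intervals and dotted lines at 1.5-fold. The medians of all genes compared, not drawn, were 0.18, 0.10 and 0.14 on the left and 0.23, 0.06 and 0.17 on the right (stored healthy, 2-week and 16-week). Every point on the left lies right of 0, with RPL37 at 2 weeks (0.69) past the dotted line (without the 50 most abundant other genes, 10, 9 and 13 of 13 members stay above 0), whereas on the right RPS29 lies left of 0 in all 3 sections (-0.30, -0.06 and -0.50) and RPS4X right of it (0.37, 0.31 and 0.21, the last turning to -0.08 without the 50 most abundant other genes).

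The last division was by MYH8, the neonatal myosin heavy chain of regenerating fibres, with at least 1 UMI against 0. The members took 4.46% in 436 MYH8 spots and 4.57% in the 2004 others of the stored healthy section (log2 ratio -0.03, interval -0.05 to -0.02). The ratio turned to 0.05 (interval 0.01 to 0.09) with a minimum of 5 UMIs. After spots were thinned to 500 UMIs each, it was 0.02, with an interval of -0.04 to 0.07 that holds 0 and the first value. At 2 weeks, the members took 2.84% in 154 and 2.96% in 700 spots (-0.06, interval -0.08 to -0.03), and at 16 weeks 4.62% in 90 and 4.99% in 1636 spots (-0.11, -0.14 to -0.08). The fresh section had 3.34% in 25 and 3.36% in 1925 spots (-0.01, interval -0.08 to 0.06). The ratio of the shares thus lay between 0.928 and 0.993 in the 4 sections. MYH8 spots were deeper in the stored sections. Their median was 2721 against 2510 non-mitochondrial UMIs in stored healthy muscle, 3773 against 2900 at 2 weeks and 2128.5 against 1433 at 16 weeks. In the fresh section it was 1714 against 1841. After thinning, the 2-week and 16-week values were -0.00 (interval -0.11 to 0.10) and -0.06 (-0.18 to 0.05).

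Single members ranged further from level than the sum, though few passed the fold. In the stored healthy section, 0 of 13 were past the fold against 8.63% of all genes compared, and ratios with at least 100 UMIs on both sides lay between 0.948-fold for RPS29 and 1.20-fold for RPL26L1. At 2 weeks, RPL26L1 rose past it at 1.60-fold, from 0.748 to 1.20 UMIs per 10000 (interval of the log2 ratio 0.27 to 1.07), which is 1 of 13 against 12.6%, and RPL37 was lowest at 0.849-fold. At 16 weeks, 0 of 13 were past it against 26.2%, with RPL37 at 0.828-fold, RPS29 at 0.834-fold and RPL4 highest of the larger genes at 1.13-fold. In the fresh section, RPL26L1 was past it downwards, with 1 UMI in the MYH8 spots, which is 1 of 13 against 49.7%.

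The other regenerating markers, by contrast, stood at 14.8 against 1.60 UMIs per 10000 in MYH8 spots and the others at 2 weeks, 14.2 against 10.2 in the stored healthy section and 56.7 against 28.7 at 16 weeks. Other lists differed too. At 16 weeks, fibroblast markers stood at 201 against 123, macrophage markers at 13.5 against 7.25 and lymphocyte and plasma cell markers at 1.52 against 0.457. At 2 weeks, adipocyte markers stood at 5.31 against 10.9 and slow fibre markers at 360 against 518, and the slow fibre markers were lower in MYH8 spots of the fresh section as well, at 226 against 420. Their part in the member ratios was not tested. The median log2 ratio of the members was -0.02 in fresh muscle, -0.03 in stored healthy muscle, -0.05 at 2 weeks and -0.07 at 16 weeks, beside 0.03, 0.02, -0.06 and 0.01 for all genes compared.

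The member levels of a spot went together to an unlike degree in the sections. Between the share of the large and that of the small subunit members, Spearman's rho over spots with at least 500 non-mitochondrial UMIs was 0.12 in fresh muscle (1690 spots), 0.36 in stored healthy muscle (2349), 0.42 at 2 weeks (810) and 0.50 at 16 weeks (1500). Of the 66 pairs of the 12 members with at least 1000 UMIs in each section, 55, 65, 64 and 64 had a rho above 0, with medians of 0.02, 0.09, 0.13 and 0.13. Spots of a section share its library and differ in depth and in cell makeup, so these values describe the sections and are not a test of common control.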

How the data were processed

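Cryosections of rabbit muscle were profiled with Visium, and the deposited values are UMI counts per gene and spot, which the authors made without normalization for the spots under tissue. The submitters' processing notes name Space Ranger 1.2.0 and OryCun2.0, and the gene annotation came from Ensembl. A UMI count merges reads of the same molecule. Lists of spot positions were not used, since they carry no barcodes. Samples were grouped by their titles.

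All spots and genes were used. UMIs were summed per section or class of spots and divided by the UMIs outside the 37 mitochondrial genes, which were recognized by neighbouring identifiers. With 1 section per condition, no test was run. Intervals are exact 95% intervals (Poisson for sums, Clopper-Pearson for shares, conditional for ratios) for counting error only, and 0 UMIs allow a level of 3 UMIs. A gene was called past 1.5-fold from at least 50 UMIs over both sides. Classes under 20 spots were not compared, and doublets were not called because each spot is a small region that can hold several cells.

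The members and all lists (mitochondrial ribosome, translation factors, ribosome biogenesis, regulators, ribosome genes outside the name rule, and markers of fast and slow fibres, fibroblasts, macrophages, lymphocytes, endothelium, smooth muscle, adipocytes, blood and regenerating cells) were chosen with earlier results of these data known. Named members were the 10 with the highest mean level, the 5 highest and 5 lowest ratios per comparison from at least 100 UMIs, and a fixed set of paralogs and RPLP0. In other lists, at most the 2 highest and 2 lowest were named. RPL26L1 in the fresh MYH8 spots, and members counted past the fold, were named by the fold. A member that is not reported here by name, nor drawn, enters the sums and counts.

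Alternatives changed the denominator, the minimum counts, the spots used, the depth (thinning to 500 UMIs), the class limits and the scaling. Leaving out RPS29 and comparing sections within fibre classes were added after seeing the data. Sums and intervals came from pandas 2.3.3, scipy 1.17.1 and numpy 2.4.6 under Python 3.11.15, plots came from matplotlib 3.10.9, and the steps were tested on simulated data.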

Additional observations from a re-analysis of the deposited data

Results flagged for a closer look

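The summed members differed between COL1A1 spots and spots without COL1A1 in opposite directions in different sections. The log2 ratio was 0.0399 in stored healthy muscle, 0.146 at 2 weeks and -0.0766 at 16 weeks, and each interval lay to 1 side of 0. The stored healthy value turned to -0.14 without the 50 most abundant other genes and to -0.037 with at least 5 COL1A1 UMIs. The difference between the sections was not tested, since there is 1 section per condition. Without RPS29 the same ratios were 0.13, 0.21 and -0.00.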

How the results depend on the processing

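Of 89 alternative values for 19 results, 40 stayed within the interval given or within 1.5 times the count, and the others moved beyond it or turned direction. The causes were not tested. Per UMI of all genes, the log2 ratio of the summed members was -0.25 at 2 weeks and 0.49 at 16 weeks against stored muscle and 0.74 at 16 against 2 weeks. Without the 50 most abundant other genes, it was 0.41 in stored against fresh muscle, -0.19 at 16 weeks against stored muscle (turned from 0.13) and 0.44 at 16 against 2 weeks. In muscle spots without COL1A1, the 4 values were 0.41, -0.68, 0.15 and 0.83, and without RPS29, chosen after seeing the data, the 16-week values were 0.24 and 0.88. Scaled by the median gene, 4, 11 and 5 members were past the fold in place of 2, 7 and 11 in the other comparisons, and at 16 weeks against stored muscle 0 were higher and 1 lower in place of 2 higher. The shares of all genes past the fold are not given on this scale.

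Between MYH8 spots and others, leaving out the 50 genes gave -0.094 in fresh muscle, -0.034 at 2 weeks and -0.149 at 16 weeks. Thinning gave 0.017 in stored healthy muscle (turned, interval -0.041 to 0.074), -0.0034 at 2 weeks and -0.064 at 16 weeks, each with an interval that holds 0. A minimum of 5 UMIs gave 0.049 (turned) and -0.032 in the first 2 of these. Without COL1A1 spots the 2-week and 16-week values were -0.022 and -0.061, and without RPS29 the 16-week value was -0.079. Between COL1A1 spots and others, leaving out the 50 genes gave -0.14 in stored healthy muscle (turned), 0.043 at 2 weeks and -0.36 at 16 weeks, and leaving out RPS29 gave 0.13, 0.21 and -0.0034. A minimum of 1 UMI gave 0.066, 0.093 and -0.020, and of 5 UMIs -0.037 (turned) and 0.18 in the stored healthy and 2-week sections.

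Between slow and fast spots, leaving out the 50 genes gave -0.071 in fresh muscle, 0.043 in stored healthy muscle, 0.19 at 2 weeks and 0.11 at 16 weeks. The fresh value with them was 0.0038, with an interval of -0.064 to 0.071 that holds 0. Thinning gave 0.072 in fresh and 0.20 in stored healthy muscle, and leaving out RPS29 gave 0.22 in the latter. With limits of 0.9 and 0.1 the stored healthy value was 0.27, and with quartiles of the MYH7 share the values were 0.20 there, 0.15 at 2 weeks and 0.066 at 16 weeks.

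No paired analysis was possible because each condition has 1 section. Some alternatives left a class under 20 spots and gave no value. These were thinning, 5 MYH8 UMIs and the omission of COL1A1 spots for MYH8 in the fresh section, 5 UMIs for MYH8 and for COL1A1 at 16 weeks, thinning for COL1A1 in all sections, the limits of 0.9 and 0.1 outside the stored healthy section, and, for slow spots at 2 weeks, a minimum of 500 UMIs and the omission of COL1A1 spots. Slow spots number 25 in the fresh and 20 in the 2-week section, and RPL26L1 has 233 to 444 UMIs per section, so their values are the least precise.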
